A study of Homo sapiens with 4 samples.

Results

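Cells meet oxidants with a set of enzymes that the transcription factor NRF2 controls. In the resting state KEAP1 holds NRF2 and hands it to the CUL3 ubiquitin ligase for destruction. When cysteines of KEAP1 are modified by oxidants or electrophiles, NRF2 escapes, joins a small MAF protein and binds the antioxidant response element in the promoters of its targets. Some of these targets also protect against ferroptosis, an iron-dependent form of cell death driven by peroxidation of membrane lipids.

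The data described here are the values of 10 genes of this system among the 16376 genes of the deposited table. The 10 genes were chosen by name, with earlier results of these data known. The regulators were NFE2L2, which encodes NRF2, and KEAP1. The classical targets were NQO1, HMOX1, GCLC, GCLM, TXNRD1 and SRXN1. The ferroptosis defences were GPX4 and AIFM2. All 10 were present in the table and all 10 passed the filter of a mean of at least 0.1 FPKM. FPKM, the unit of the table, gives fragments per gene after division by gene length and library depth.

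LASCPC-01 is a neuroendocrine prostate cancer (NEPC) cell line that was made with NMYC and activated AKT1. The cells were labelled wild type in genotype, were treated with PBS or with fluoxetine, a serotonin reuptake inhibitor used as an antidepressant, and were collected on day 3 per the labels, which give no dose. The study's text gives another treatment time, and the letters PP stand in place of the drug in the sample titles. RNA was sequenced as paired-end libraries, 2 per group, from this single line, so that nothing here speaks for other NEPC cells. The comparison asked whether the mRNA of these defence genes changed under fluoxetine. As the values come from bulk cultures, fewer cells with a transcript and less transcript per cell cannot be told apart.

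The depth behind the FPKM, recovered from the values themselves, lay between 32873603 and 34831389 reads per library. Of 6 neuroendocrine markers, 5 had a mean of at least 0.1 FPKM and CHGA was below it, all 3 epithelial markers were expressed, and both basal markers were below 0.1 FPKM. Gene length affected the FPKM of the libraries to different degrees. The correlation across genes between log2 gene length and the deviation of a library from the mean of all 4 was -0.282 for fluoxetine replicate 1 and 0.187 for PBS replicate 2, and it was 0.0552 and 0.0458 for PBS replicate 1 and fluoxetine replicate 2. Fold changes with this trend removed are therefore given for each of the 10 genes, for the medians of the lists and for some of the other genes.

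The element through which NRF2 acts has the core TGACNNNGC. It was searched on both strands of the RefSeq promoters (GRCh38.p14), each running from 250 bases before to 50 bases after a transcription start. The 10 genes had 14 such promoters, for 9 of the genes, and HMOX1 had no entry. The core was present in 5 of the 14 promoters, belonging to GCLM, AIFM2, TXNRD1 and KEAP1, while 13.3% of all 35116 promoters held it. The stretches that match this pattern are shown with the core in capitals, each written along the strand of its gene. Whether NRF2 and its MAF partner bind them was not tested. Where the capitals begin with GC, the core is on the other strand.

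GCLM: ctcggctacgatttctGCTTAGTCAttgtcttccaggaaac
AIFM2: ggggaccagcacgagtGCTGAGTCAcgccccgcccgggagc
TXNRD1, far core of the upstream promoter: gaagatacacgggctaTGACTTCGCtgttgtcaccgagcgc
TXNRD1, near core of the upstream promoter: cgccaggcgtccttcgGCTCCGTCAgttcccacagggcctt
TXNRD1, downstream promoter: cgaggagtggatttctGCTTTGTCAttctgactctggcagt
KEAP1: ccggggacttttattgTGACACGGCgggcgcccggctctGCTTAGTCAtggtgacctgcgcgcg

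The GCLM stretch covers chr1:93909440-93909480 and its core begins 34 bases before the start. The AIFM2 stretch covers chr10:70132823-70132863, with the core 22 bases before the start. The upstream TXNRD1 promoter held a core 99 bases and another 8 bases before the start, within chr12:104215664-104215704 and chr12:104215755-104215795. The downstream TXNRD1 promoter held a core 102 bases before the start, within chr12:104286914-104286954. KEAP1, the inhibitor of NRF2, held a core on each strand, 54 and 31 bases before the start of 1 of its promoters, within chr19:10502778-10502841. In the windows of NFE2L2, NQO1, GCLC, SRXN1 and GPX4 these letters were not found, which says nothing of elements further away. A match is a description of the sequence, and no binding of NRF2 was measured here.

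The 10 genes covered a wide range of levels. Per length, TXNRD1 and GPX4 were highest, with means over the 4 libraries of 111.7 and 110.0 FPKM, and their ranges over the libraries overlapped. NFE2L2 (32.1 FPKM) and GCLC (31.9 FPKM) came next and overlapped as well, as did HMOX1 (26.5 FPKM) and KEAP1 (24.0 FPKM). SRXN1 (14.0 FPKM), NQO1 (13.2 FPKM) and AIFM2 (11.7 FPKM) followed, each overlapping its neighbour. GCLM stood alone at the bottom with 2.20 FPKM. The reads recovered for a gene in a library ran from 223 for GCLM to 15850 for TXNRD1, so that the counting error of a single value was at most 6.70% for GCLM and at most 3.09% for the other 9 genes. All of these genes were thus expressed in LASCPC-01 cells with or without fluoxetine.

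**Figure D1:**
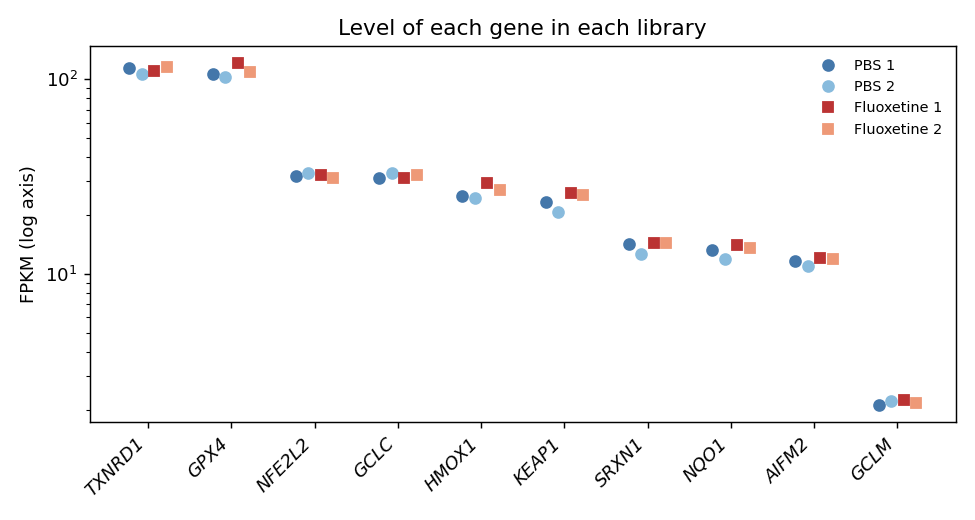
FPKM (log axis) of the 10 genes in each library, ordered by their mean, with circles for the 2 PBS and squares for the 2 fluoxetine libraries. TXNRD1 and GPX4 sit above 100 FPKM in every library and GCLM near 2 FPKM, and within a gene the libraries lie close together.

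None of the 10 genes was called as changed by fluoxetine. With limma, the adjusted p over the 12663 genes tested was under 0.05 for 0 of 10, beside 0.237% of all genes tested. An unadjusted p under 0.05 was found for 2 of them, KEAP1 and HMOX1, beside 8.51% of all genes tested. A second fit, voom on the recovered reads, also called 0 of 10, beside 51 of the 14043 genes in that fit. Its unadjusted p was under 0.05 for KEAP1 only, beside 1473 of the 14043 genes. For 2 libraries against 2, the smallest p that an exact two-sided permutation test allows for any gene is 0.333.

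The differences were small and, where the groups were apart, fluoxetine was above PBS. In 6 of the 10 genes, namely KEAP1, NQO1, HMOX1, SRXN1, GPX4 and AIFM2, both fluoxetine libraries exceeded both PBS libraries, beside 16.7% of all genes tested. The reverse order was found for 0 of the 10, beside 24.8% of all genes tested. In the other 4 genes the groups overlapped. The median log2 fold change was 0.09 over the 10 genes, whereas it was -0.02 over all genes tested. The 95% intervals of the 10 log2 fold changes lay between -0.28 and 0.40, that is between 0.823-fold and 1.32-fold. The count depended on scaling and length. With the length trend removed, 5 genes were above PBS without overlap (SRXN1 now overlapped), beside 19.5% of all genes, and 0 below, beside 20.0%. After rescaling to TPM, which brings the libraries to the same sum, 4 genes (KEAP1, NQO1, HMOX1 and GPX4) were above, beside 10.7% of all genes, and 1, NFE2L2, was below, beside 32.1%.

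**Figure D2:**
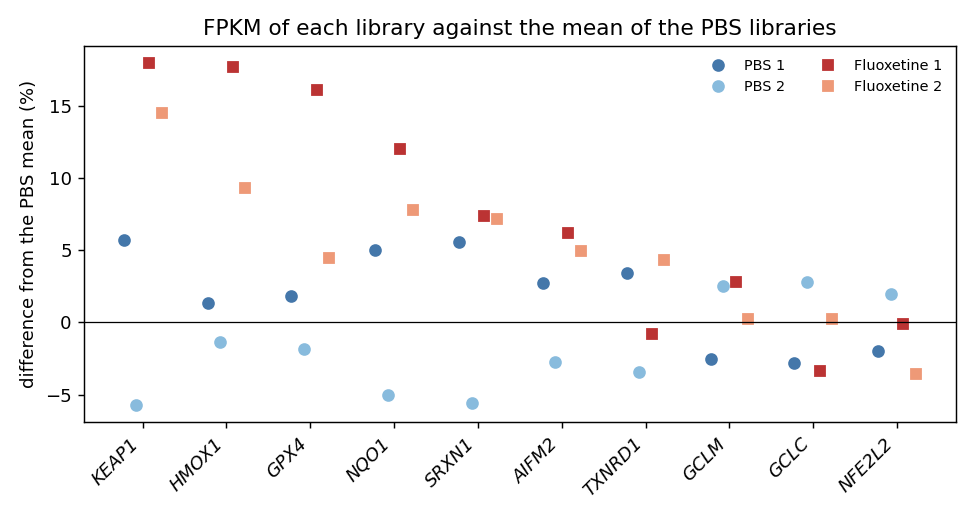
Difference of each library from the mean of the 2 PBS libraries in percent of that mean, for the 10 genes ordered by fold change. In KEAP1 the fluoxetine libraries sit 18.01% and 14.5% above the PBS mean, whereas in TXNRD1, GCLM, GCLC and NFE2L2 squares and circles interleave.

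The lowest library was the same in most of the 10 genes, and so was the highest. PBS replicate 2 was the lowest library in 7 of the 10 genes, as it was in 24.4% of all genes tested. It was the highest in 2, beside 33.8% of all genes tested. Fluoxetine replicate 1 was the highest in 7, beside 26.9% of all genes tested, and the lowest in 1, beside 33%. These are the libraries whose FPKM depended most on gene length, in opposite directions. Whether length set this order was not tested. With the length trend removed, the median log2 fold change of the 10 genes was 0.07. The median log2 fold change of the 10 genes was 0.05 without PBS replicate 2 and 0.07 without fluoxetine replicate 1.

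Of the regulators, NFE2L2 mRNA was flat. It had 31.8 and 33.02 FPKM with PBS and 32.4 and 31.2 FPKM with fluoxetine, so that the fluoxetine libraries lay on both sides of PBS replicate 1 and below PBS replicate 2. Its log2 fold change was -0.03 (standard error 0.07, 95% interval -0.19 to 0.13, adjusted p = 0.938 from limma), and -0.02 with the length trend removed. NFE2L2 lies on chromosome 2 (177227595 to 177392697, minus strand, GENCODE 29). The activity of NRF2 is set largely through the stability of the protein, which RNA does not show.

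KEAP1, the cysteine-rich sensor that marks NRF2 for destruction, had the largest fold change of the 10, except without PBS replicate 2, when HMOX1 (log2 fold change 0.16) exceeded it (0.14). It had 23.5 and 21.0 FPKM with PBS and 26.2 and 25.5 FPKM with fluoxetine, from 2343, 2209, 2769 and 2689 reads. Both fluoxetine libraries were above both PBS libraries, and the mean was 16.3% higher. The log2 fold change was 0.22 (standard error 0.08, 95% interval 0.04 to 0.40), with an unadjusted p of 0.0197 and an adjusted p of 0.525 from limma. It was 0.22 with the length trend removed. KEAP1 lies on chromosome 19 (10486120 to 10503741, minus strand), and no exon of another annotated gene overlaps its exons.

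The ratio of NFE2L2 to KEAP1, both per length, was 1.35 and 1.58 with PBS and 1.23 in both fluoxetine libraries (1.233 and 1.226). The groups did not overlap, and the PBS libraries differed from each other by more than the fluoxetine libraries did. NFE2L2 was flat, so this ratio largely repeats the KEAP1 values. No share of other gene pairs without overlap was computed to set beside it. The difference between the mean ratios, 1.46 with PBS and 1.23 with fluoxetine, was close to that between the PBS libraries.

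Among the targets, NQO1 and HMOX1 are commonly read as reporters of NRF2. NQO1 reduces quinones in a single step that avoids radical formation. It had 13.3 and 11.98 FPKM with PBS and 14.14 and 13.6 FPKM with fluoxetine, with both fluoxetine libraries on top. For NQO1 the log2 fold change was 0.14, with a standard error of 0.09 and a 95% interval from -0.05 to 0.33 (adjusted p = 0.638 from limma). It was 0.12 with the length trend removed and 0.06 without PBS replicate 2. NQO1 lies on chromosome 16 (69706996 to 69726951, minus strand).

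HMOX1 encodes the inducible haem oxygenase, which breaks haem down to biliverdin, carbon monoxide and iron. It had 25.2 and 24.5 FPKM with PBS and 29.2 and 27.1 FPKM with fluoxetine. The PBS libraries were close together and both fluoxetine libraries lay above them, with a mean 13.5% higher. The log2 fold change of HMOX1 was 0.18 (standard error 0.08, 95% interval 0.02 to 0.35), with an unadjusted p of 0.0345 and an adjusted p of 0.552 from limma. With a length of 1554 bases it was the second shortest of the 10 genes. With the length trend removed the log2 fold change was 0.13 and the unadjusted p from limma 0.0674, and with voom on the recovered reads the unadjusted p was 0.0579. HMOX1 lies on chromosome 22 (35380361 to 35394214, plus strand).

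GCLC and GCLM encode the catalytic and the modifier subunit of glutamate-cysteine ligase, the rate-limiting enzyme of glutathione synthesis. GCLC had 31.3 and 33.1 FPKM with PBS and 31.1 and 32.3 FPKM with fluoxetine. GCLM had 2.13 and 2.24 FPKM with PBS and 2.24 and 2.19 FPKM with fluoxetine. In both genes the groups overlapped. The log2 fold change was -0.02 for GCLC (standard error 0.07, adjusted p = 0.951 from limma) and 0.02 for GCLM (standard error 0.14, adjusted p = 0.979). With the length trend removed, GCLC had -0.01 and GCLM had 0.02. The interval of GCLM, from -0.28 to 0.32, was the widest of the 10, in a fit that lets the variance depend on the level of a gene. With this variance trend left out, its standard error was 0.080, below the 0.094 of KEAP1. Per length, the catalytic subunit exceeded the modifier by 14.7-fold and 14.8-fold with PBS and by 13.9-fold and 14.8-fold with fluoxetine, so that this ratio overlapped between the groups. GCLC lies on chromosome 6 (53497341 to 53616970, minus strand) and GCLM on chromosome 1 (93885205 to 93909456, minus strand).

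TXNRD1 and SRXN1 serve the thioredoxin system. TXNRD1, a selenoprotein, returns oxidised thioredoxin to its reduced form. It had 114.6 and 107.0 FPKM with PBS and 109.9 and 115.6 FPKM with fluoxetine, and the groups overlapped. Its log2 fold change was 0.03 (standard error 0.07, 95% interval -0.14 to 0.19, adjusted p = 0.943 from limma), or 0.05 with the length trend removed. SRXN1, sulfiredoxin, repairs peroxiredoxins that have been overoxidised. It had 14.3 and 12.7 FPKM with PBS and 14.5 FPKM in both fluoxetine libraries (14.50 and 14.47). PBS replicate 1 reached nearly the level of fluoxetine, and PBS replicate 2 was lower. The log2 fold change of SRXN1 was 0.10 (standard error 0.09, adjusted p = 0.723), and it was 0.08 with the length trend removed and 0.02 without PBS replicate 2. The ratio of TXNRD1 to SRXN1 per length was 8.04 and 8.39 with PBS and 7.58 and 7.99 with fluoxetine. It was lower with fluoxetine without overlap, but PBS replicate 1 was close to fluoxetine replicate 2. Here too no share over other gene pairs was computed. TXNRD1 lies on chromosome 12 (104215779 to 104350305, plus strand) and SRXN1 on chromosome 20 (646615 to 653370, minus strand).

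GPX4 and AIFM2 are the ferroptosis defences. GPX4, a selenoprotein, uses glutathione to reduce lipid hydroperoxides within membranes. It had 106.5 and 102.7 FPKM with PBS and 121.4 and 109.3 FPKM with fluoxetine. Both fluoxetine libraries were above both PBS libraries, and fluoxetine replicate 1 stood further from the other fluoxetine library than that library stood from PBS replicate 1. For GPX4 the log2 fold change was 0.14 (standard error 0.08, 95% interval -0.03 to 0.31, adjusted p = 0.613 from limma). GPX4 was the shortest of the 10 genes, with 1153 bases, and its log2 fold change was 0.06 with the length trend removed and 0.06 without fluoxetine replicate 1. GPX4 lies on chromosome 19 (1103926 to 1106791, plus strand), and no exon of another annotated gene overlaps its exons.

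AIFM2, also called FSP1, recycles ubiquinone at membranes with NADPH and so stops lipid radicals without glutathione. It had 11.7 and 11.04 FPKM with PBS and 12.1 and 11.9 FPKM with fluoxetine, with both fluoxetine libraries slightly above. AIFM2 had a log2 fold change of 0.08 (standard error 0.08, 95% interval -0.11 to 0.26, adjusted p = 0.787 from limma), and it was 0.08 with the length trend removed. It was 0.04 without PBS replicate 2, 0.12 without PBS replicate 1 and 0.03 after rescaling to TPM. The ratio of GPX4 to AIFM2 per length was 9.13 and 9.30 with PBS and 10.1 and 9.17 with fluoxetine, and it overlapped between the groups. AIFM2 lies on chromosome 10 (70098223 to 70132934, minus strand). In GENCODE 29, exons of other annotated genes overlap those of NFE2L2, NQO1, GCLC, SRXN1 and AIFM2, on the same strand for NFE2L2, GCLC and SRXN1, and how reads on shared bases were assigned is not given in the sources used here.

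**Figure D3:**
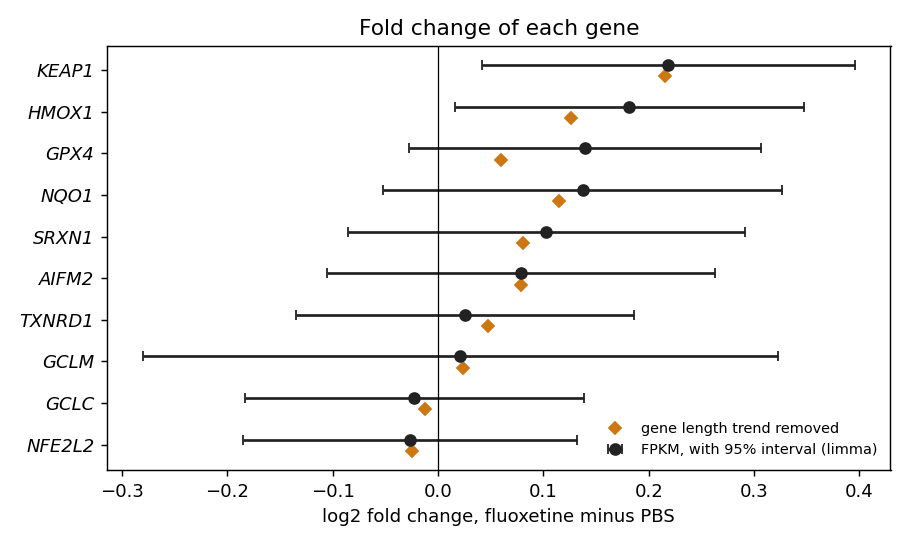
Log2 fold change of each gene, fluoxetine minus PBS on log2(FPKM + 0.1), with the 95% interval from limma (circles and bars) and after removal of the gene length trend (diamonds). Only the intervals of KEAP1 and HMOX1 lie above 0, before any adjustment for the 12663 genes tested, and the diamond of GPX4 is moved from 0.14 to 0.06.

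Gene length moved with the fold change across the whole table. In bins of length, the median log2 fold change was 0.07 for the 659 genes around 1.22 kb, 0.02 for the 1933 genes around 2.44 kb and -0.10 for the 1093 genes around 9.74 kb. GPX4 and HMOX1 were the members in the range of short genes, and KEAP1, at 3032 bases, lay where the median was near 0. The lengths are those implied by the FPKM and the recovered depth.

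The wider pathway was described with 8 lists that together name 125 other genes, of which 124 were in the table and 116 were tested. With limma, 0 of the 116 had an adjusted p under 0.05, beside 0.237% of all genes tested, and 9 had an unadjusted p under 0.05, 4 higher and 5 lower in fluoxetine, beside 8.51% of all genes tested. Both fluoxetine libraries were above both PBS libraries in 27 of the 116 and below them in 27, beside 16.7% and 24.8% of all genes tested. The median log2 fold change over these genes was 0.01, whereas it was -0.02 over all genes tested.

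The partners, relatives and turnover factors of NRF2 had a median log2 fold change of -0.01 over 11 genes, which turned to 0.05 with the length trend removed, with 0 called in either direction. MAFG, a small MAF partner, had 14.6 and 14.8 FPKM with PBS and 15.3 and 15.98 FPKM with fluoxetine (log2 fold change 0.09, standard error 0.08). MAFF, a related partner, had 8.92 and 7.66 FPKM with PBS and 7.36 and 6.99 FPKM with fluoxetine (log2 fold change -0.20, standard error 0.10). With the length trend removed, MAFG had 0.13 and MAFF had -0.23 (unadjusted p = 0.0423 from limma for MAFF). In that fit, 1001 of the 12663 genes tested had an unadjusted p under 0.05. BACH1, which competes with NRF2 for the same element, and SQSTM1, the autophagy receptor that can sequester KEAP1, both overlapped between the groups, with log2 fold changes of 0.07 each, or 0.12 and 0.08 with the length trend removed. RBX1, the RING subunit of the CUL3 ligase, had a log2 fold change of 0.21 (standard error 0.10), or 0.14 with the length trend removed, and overlapped. NFE2L1, a relative of NRF2 that drives proteasome genes, had one of -0.14 (standard error 0.07) without overlap. For NFE2L1 it was -0.18 with the length trend removed (unadjusted p = 0.0331 from limma).

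In glutathione supply and use, the median was 0.07 over the 21 genes tested, or 0.02 with the length trend removed, and 0 were called. CHAC1, which degrades glutathione, had 6.11 and 6.01 FPKM with PBS and 4.96 and 4.16 FPKM with fluoxetine, with both fluoxetine libraries below. Its log2 fold change was -0.41 (standard error 0.11), with an unadjusted p of 0.00378 and an adjusted p of 0.329 from limma. SLC7A11, the cystine carrier that feeds glutathione synthesis, had 2.90 and 3.01 FPKM with PBS and 2.25 and 2.78 FPKM with fluoxetine (log2 fold change -0.23, standard error 0.14, and -0.13 with the length trend removed), whereas its heavy chain SLC3A2 had 78.2 and 63.6 FPKM with PBS and 82.5 and 81.0 FPKM with fluoxetine (0.21, standard error 0.09). For SLC3A2 the groups did not overlap, with PBS replicate 2 the lowest library. GSR, which returns oxidised glutathione to its reduced form, overlapped, with a log2 fold change of 0.0041 (standard error 0.08). GPX2, a glutathione peroxidase of the gut epithelium, rested on 6 reads in each PBS library and 1 read in each fluoxetine library, the smallest numbers possible, a ratio of 0.162 with an exact 95% counting interval of 0.0176 to 0.727.

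Among thioredoxins, peroxiredoxins and the enzymes of superoxide and peroxide, the median was 0.06 over 15 genes and 0.0087 with the length trend removed, and 0 were called. PRDX1, a peroxiredoxin and NRF2 target, had 227.9 and 188.6 FPKM with PBS and 250.3 and 231.1 FPKM with fluoxetine, which gave 0.21 as log2 fold change (standard error 0.09), or 0.14 with the length trend removed. TXN, thioredoxin itself, had 191.2 and 172.2 FPKM with PBS and 210.0 and 185.1 FPKM with fluoxetine, and overlapped, with a log2 fold change of 0.12 that was 0.0087 with the length trend removed. SESN2, a stress-induced sestrin, had 16.5 and 17.1 FPKM with PBS and 13.9 and 14.5 FPKM with fluoxetine (log2 fold change -0.24, standard error 0.08, adjusted p = 0.462 from limma). TXNIP, the inhibitor of thioredoxin, had 45.8 and 47.6 FPKM with PBS and 40.9 and 41.3 FPKM with fluoxetine (-0.18, standard error 0.07, adjusted p = 0.535). In SESN2 and TXNIP the replicates were close together and the groups did not overlap.

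Other NRF2 targets in detoxification and NADPH supply had a median of -0.0016 over 16 genes (-0.01 with the length trend removed), with 0 called. AKR1B1, aldose reductase, had a log2 fold change of 0.21 (standard error 0.09), and EPHX1, an epoxide hydrolase, one of 0.16 (standard error 0.09), both without overlap. With the length trend removed, AKR1B1 had 0.15 and EPHX1 had 0.12. PIR, an iron-binding nuclear protein, overlapped with a log2 fold change of -0.14, or -0.21 with the length trend removed (unadjusted p = 0.0175 from limma). AKR1C1 and AKR1C3, aldo-keto reductases that NRF2 induces in many epithelial cells, were below 0.1 FPKM on average and were not tested, as were ABCC2 and CBR3, and AKR1C2 was not analysed here.

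Iron and haem genes had a median of 0.01 over 15 genes, which turned to -0.02 with the length trend removed, with 0 called. BLVRB, a biliverdin and flavin reductase, had 2.74 and 2.30 FPKM with PBS and 3.85 and 3.49 FPKM with fluoxetine, from 72, 64, 107 and 97 reads. Both fluoxetine libraries were above both PBS libraries, and the log2 fold change was 0.53 (standard error 0.13) with an unadjusted p of 0.00213 and an adjusted p of 0.276 from limma, or 0.42 with the length trend removed. FTH1 and FTL, the ferritin chains that store iron and NRF2 targets themselves, had log2 fold changes of -0.09 and 0.08 and overlapped between the groups, as did TFRC, the transferrin receptor, with 0.05. With the length trend removed, FTH1 had -0.17 (unadjusted p = 0.0328 from limma), FTL turned to -0.02 and TFRC had 0.12. BLVRA, the reductase that acts on the biliverdin made by HMOX1, was named after its values were seen, and it overlapped with a log2 fold change of -0.06, or -0.13 with the length trend removed. FTH1 and FTL have many near-identical pseudogene copies, so their values are less certain. IREB2, an iron-sensing regulator, and SLC11A2, an iron importer, both had log2 fold changes of -0.10, and -0.03 with the length trend removed.

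Ferroptosis defences outside GPX4 and AIFM2 had a median of -0.0063 over 14 genes (-0.0090 with the length trend removed), with 0 called. DHODH and GCH1, which protect through ubiquinol in mitochondria and through tetrahydrobiopterin, overlapped between the groups, with log2 fold changes of -0.0023 and -0.03. SCD, which makes the monounsaturated fatty acids that resist peroxidation, had 165.2 and 168.6 FPKM with PBS and 136.6 and 152.5 FPKM with fluoxetine (log2 fold change -0.21, standard error 0.08, adjusted p = 0.525 from limma), without overlap. SPR, of tetrahydrobiopterin synthesis, had a log2 fold change of 0.20 without overlap, or 0.14 with the length trend removed. MBOAT2, a phospholipid acyltransferase, had one of -0.22 with overlap, or -0.14 with the length trend removed.

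Genes that favour lipid peroxidation had a median of -0.04 over 15 genes (-0.02 with the length trend removed), with 0 called. ACSL4 and LPCAT3, which place polyunsaturated fatty acids into phospholipids, were both lower in both fluoxetine libraries. ACSL4 had 43.9 and 45.7 FPKM with PBS and 40.6 and 41.3 FPKM with fluoxetine, and LPCAT3 had 25.2 and 26.7 FPKM with PBS and 22.8 and 23.8 FPKM with fluoxetine. Their log2 fold changes were -0.13 and -0.15, with adjusted p of 0.613 and 0.598 from limma. With the length trend removed, ACSL4 had -0.09 and LPCAT3 had -0.18 (unadjusted p = 0.0280 from limma for LPCAT3). ALOXE3, a lipoxygenase, had 34 reads in each PBS library, and the fluoxetine libraries had 6 and 24. ALOX12 was listed at 0 in all 4 libraries. Selenoprotein synthesis genes, on which GPX4 and TXNRD1 depend, had a median of -0.04 over 9 genes, which turned to 0.02 with the length trend removed, with 0 called. SEPHS2, which makes the selenium donor, had a log2 fold change of 0.15 (standard error 0.07), and TRNAU1AP one of 0.17 (standard error 0.09), both without overlap. EEFSEC, the selenocysteine elongation factor, had one of -0.17 with overlap. With the length trend removed, SEPHS2 had 0.12, TRNAU1AP 0.13 and EEFSEC -0.15.

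**Figure D4:**
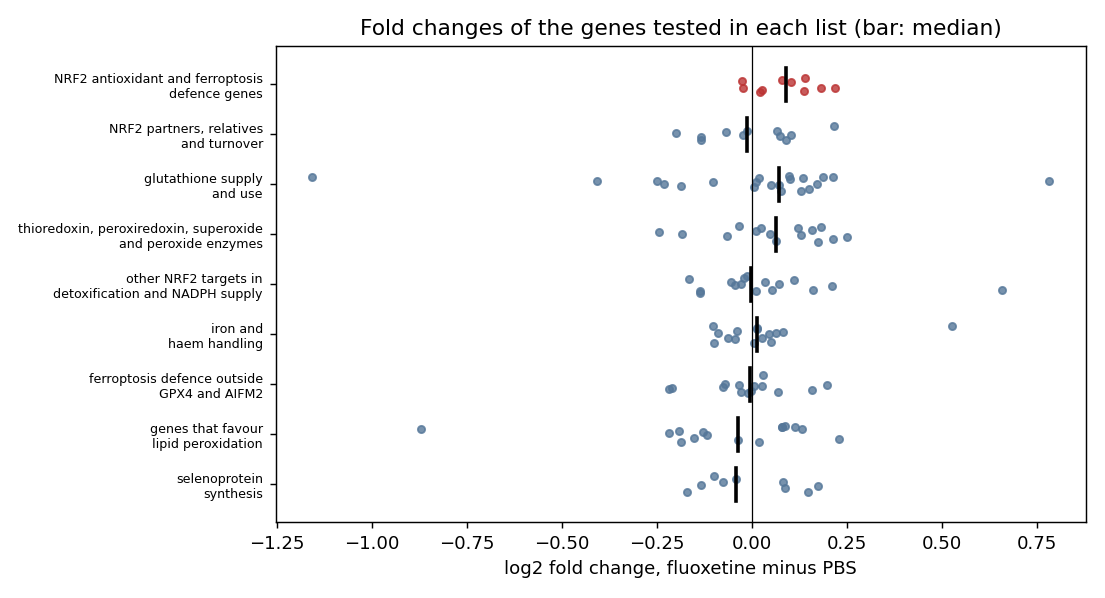
Log2 fold change (fluoxetine minus PBS) of every gene tested in the 10-gene set (red) and in the 8 lists of the wider pathway (blue), with the median of each as a bar. The medians lie between -0.04 and 0.09, and the points beyond 0.5 in either direction are GPX2, ALOXE3, GSTM3, AKR1B10 and BLVRB, named for their place in the plot, none of which exceeded 107 reads in a library.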

How the data were processed

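RNA of LASCPC-01 cells under PBS or fluoxetine was profiled in 4 libraries. The authors deposited FPKM, fragments per gene scaled to gene length and library depth. The submitters' processing notes name fastp, HISAT2, HTSeq and GRCh38 without versions, and the annotation is not given in the sources used here. The study's methods name a count-based test, whereas the deposited unit is FPKM, so limma 3.58.1 in R 4.3.3 was used (lmFit, eBayes with a variance trend). The values were log2(FPKM + 0.1), genes averaging under 0.1 FPKM were dropped, and p-values were adjusted by the Benjamini-Hochberg method over the 12663 that stayed, with 95% intervals. The labels and the study's methods name different library kits. Nothing in the labels says that the libraries came from separate cultures, so p-values rest on the spread between these libraries. For each gene, eBayes draws that spread toward the spread of genes at a similar level.

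Whole reads were solved from the FPKM as the smallest whole numbers, within 0.004, that gave the ratios between libraries and a whole gene length. This solved 99.5% of the 16080 genes above 0. The absolute depth was the value that 93 genes shared when their reads were set against their GENCODE 29 exon lengths. Such a length was found for 15926 genes. For each member the length implied by the FPKM was shorter, from 2528 against 2698 bases for SRXN1 to 3438 against 8646 for GCLC. The exons counted can therefore differ from those used for overlaps with other genes. Two-sided intervals on reads cover counting error only. Gene locations came from GENCODE 29 and promoters from RefSeq (GRCh38.p14). Tables and figures were made in Python 3.11.15 with pandas 2.3.3. Fits and read recovery were also run on simulated data, with outcomes that are not reported here.

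The members and lists were chosen with earlier results of these data known. The genes named were all 10 members, 12 preset genes of the pathway (SLC7A11, GSR, TXN, BACH1, MAFG, SQSTM1, FTH1, FTL, TFRC, ACSL4, DHODH and GCH1), and the 3 genes of each list with the smallest unadjusted p. Alternatives changed the scaling (TPM, median centring, quantile normalization), the pseudocount (1 or 0.01), the filter (none, or 1 FPKM) and the eBayes step (robust, or with no variance trend). Others were the replicate number as a block, removal of the gene length trend (lowess, span 0.3), and each library left out. The voom fit on recovered reads (at least 10 over the 4 libraries) and the overlap counts after length correction and in TPM were added after seeing the data.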

Additional observations from a re-analysis of the deposited data

How the results depend on the processing

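None of the 10 genes had an adjusted p under 0.05 under any of the 16 alternatives, where the lowest was 0.323 (KEAP1 with the replicate block), so 0 were called lower and 0 higher throughout. Of the 160 fold changes of single genes under the alternatives, 150 kept their sign. The median log2 fold change of the 10 genes was 0.043 after rescaling to TPM, and with a library left out it ranged from 0.048 to 0.14. The signs that changed belonged to genes near 0. After rescaling to TPM, the log2 fold change was -0.025 for GCLM and -0.022 for TXNRD1. With quantile normalization it was -0.030 for TXNRD1, and with median centring it was 0.0038 for GCLC. With a library left out, the ranges were -0.055 to 0.0014 for NFE2L2, -0.063 to 0.018 for GCLC, -0.014 to 0.056 for GCLM and -0.024 to 0.075 for TXNRD1. The lone library of a group was then assumed to vary like the other group. The cause of these shifts was not tested.

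The titles number the libraries 1 and 2 in each group. Deviations of same-numbered libraries from the group means correlated at 0.0351 across the genes tested and at 0.101 across those of at least 10 FPKM. The labels tie the numbers to no shared culture or day, and 2 pairs do not settle whether they pair the libraries. Under the replicate block the 10 genes had a median log2 fold change of 0.09, and 0 of them were called. Over all genes tested, limma called 30 without the block and 64 with it, 16 after quantile normalization, 0 with no filter or with no variance trend (1175 and 933 had an unadjusted p under 0.05), and 2 to 12 with a library left out, while voom called 51. With 2 libraries a group, the unadjusted 95% intervals ran from 0.823-fold to 1.25-fold for GCLM, the widest, and from 0.879-fold to 1.10-fold for NFE2L2.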
